A study of Arabidopsis thaliana with 8 samples.

Results

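The genes described here lie around the immune regulator gene EDS1 on chromosome 3 of Arabidopsis thaliana. The members were chosen by locus number and by measured values: they are all measured loci with numbers AT3G43210 to AT3G48640, without 15 loci that the selection left out, among them EDS1 itself (AT3G48090). The range was drawn from the values of the eds1 mutant line against wild type in these same libraries. Of the 18333 genes measured in any table, 294 are members. They extend 262 measured genes before EDS1 and 44 after it, with 251 members before and 43 after. The reference annotation holds 746 loci in the range, of which 565 code for proteins, and 438 had no value.

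Rosettes of untreated plants aged 28 days were sequenced in 8 libraries, 2 per genotype, and every genotype is labelled as ecotype Col-0. The eds1 line is a pbl19 mutant with a further mutation in eds1; it holds a PBL19C3A-GFP-HA construct driven by the promoter of PBL19, and its labels give a phenotype like wild type. The sid2 line carries the same construct in pbl19 with a mutation in sid2, and the PBL19C3A line carries it in pbl19 alone; both are labelled with constitutive immunity. Wild type (WT) carries none of these. The labels name neither the eds1 and sid2 alleles nor the insertion site of the construct, and the design text speaks of a single biological replicate. The p-values below therefore measure only the spread between the 2 libraries of a genotype, which may be technical.

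EDS1 is a lipase-like protein that, with its partners PAD4 and SAG101, relays signals from intracellular immune receptors and promotes salicylic acid responses. SID2 encodes the isochorismate synthase that makes most pathogen-induced salicylic acid. Loci that lie close together on a chromosome are mostly inherited together, so a line that carries a given allele by crossing also carries its neighbours from the same parent.

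Total counts per library were between 37373977 and 51202472. Levels are the authors' FPKM, fragments scaled to transcript length and sequencing depth, in library 1 and then library 2 of a genotype, and a log2 fold change is given with its standard error. A gene is called where the adjusted p of edgeR's quasi-likelihood test across all genes was below 0.05. PBL19, the gene of the transgene, had 65.1 and 37.9 FPKM in the eds1 line, 626 and 956 in the sid2 line, 2197 and 1637 in the PBL19C3A line, and 7.40 and 10.4 in WT. EDS1 was still counted in the eds1 line, at 4.99 and 3.21 FPKM, against 8.03 and 13.4 FPKM in WT. Of 10 immune genes outside the range, chosen with earlier results of these data known, 10 were called higher in the PBL19C3A line than in WT. In the sid2 line 10 were called higher too (edgeR). Over all genes these shares were 21.4% and 12.1%. The immune genes without an eds1 value entered only through the immune libraries, so their height over WT is set by that. Of the 7 with a value in the eds1 line, 7 were called lower there than in the PBL19C3A line, against 16.2% of all genes. The 5 leaf mesophyll markers and the 3 guard cell markers were all measured. Their summed levels were 37394 to 42404 and 27.7 to 34.5 FPKM in the eds1 line, 33376 to 33935 and 21.3 to 22.4 in the sid2 line, 26417 to 29126 and 12.6 to 16.3 in the PBL19C3A line, and 41339 to 44091 and 30.7 to 32.3 in WT. Of the root, flower and seed markers, 2 of 4, 1 of 3 and 0 of 2 were listed. Summed root markers stood at 134 to 151, 122 to 141, 66.6 to 66.8 and 101 to 123 FPKM in the eds1, sid2 and PBL19C3A lines and WT. The flower marker listed, PI (AT5G20240), had 1.86 and 2.11 FPKM in the sid2 line, against 0.782 and 0.473 in WT, and no value in the eds1 and PBL19C3A tables. The mesophyll and guard cell sums were thus lowest in the PBL19C3A line, and their part in the results below was not tested. In whole rosettes, fewer cells of a type and less RNA per cell cannot be told apart.

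Between the eds1 line and WT, 3 members were called higher and 15 lower, which is 6.45% of the 279 members with a value, against 0.16% of all genes (0.0342% higher and 0.125% lower). This contrast chose the range, so these values are a description and carry no test. The split depended on the method: DESeq2 gave 15 higher and 26 lower, and edgeR with only these 2 genotypes in the fit gave 1 higher and 7 lower. Over all genes DESeq2 called 92 and that edgeR fit 17, beside 28 in the main fit. Over the genome 28 genes were called, of which 18 were members, 2 were loci of the range that the selection left out and 6 were newGene loci, which have no locus number. The other 2 were AT1G53480 on chromosome 1 and AT3G30720, which lies before the range. AT3G30720 was listed at 0 in both libraries of the eds1 line and stood at 19.4 and 24.0 FPKM in the sid2 line, 2.15 and 3.87 in the PBL19C3A line, and 5.62 and 3.63 in WT. Against the PBL19C3A line, 27 members were higher in the eds1 line and 70 lower of 271 (35.8%), beside 28.2% of all genes (12.0% higher and 16.2% lower). Against the sid2 line, 5 were higher and 47 lower of 270 (19.3%), beside 9.4% of all genes (2.39% higher and 7.02% lower). Both contrasts share the eds1 libraries with the one that chose the range. In the omissions named next, fewer were called over all genes too. Without eds1 library 2 these counts were 56 and 34 members, and without PBL19C3A library 1 the first was 59. Of the 18 members called against WT, 16 lie before EDS1, where 238 were compared, and 2 after it, where 41 were compared.

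The wider departures in this contrast are also a description, since the range and its ends were drawn from it. Members with an absolute log2 fold change of at least 1 between the eds1 line and WT numbered 38 of 279 (13.6%), of which 16 were higher and 22 lower. Among equally many measured genes directly before the range the share was 2.12%, directly after it 1.4%, on the rest of chromosome 3 0.46%, and over all genes 1.44%. The median absolute log2 fold change was 0.24 among members and 0.12 over all genes. With chromosome 3 cut into runs of 50 measured genes, the 6 runs that hold members had 4 to 10 genes past this size, and no other run had more than 2. In the PBL19C3A line against WT the picture was flat: 20.4% of members were past the same size, against 23.3% before the range, 19.4% after it and 18.7% of all genes.

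**Figure D1:**
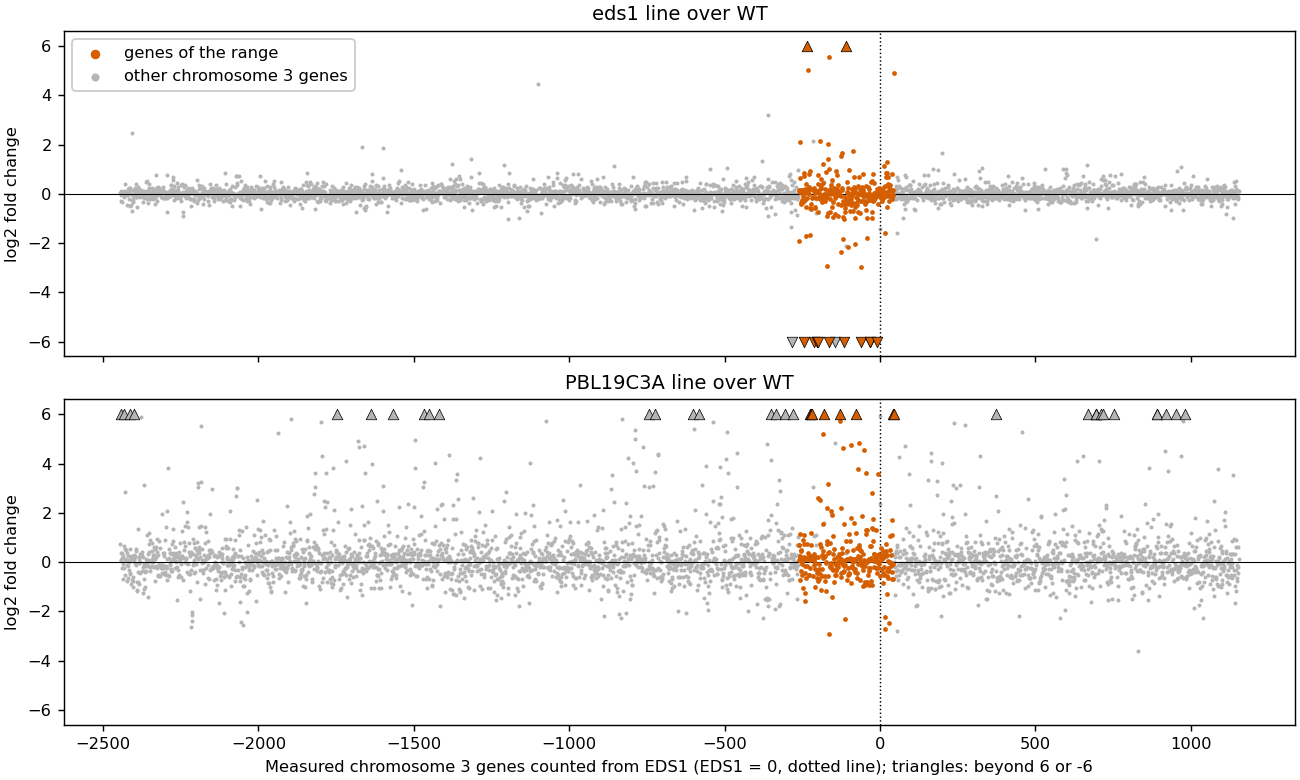
Log2 fold change of each measured chromosome 3 gene for the eds1 line over WT (upper panel) and the PBL19C3A line over WT (lower panel), against its place in gene order counted from EDS1; triangles are values beyond 6 or -6. In the upper panel, whose contrast chose the range, the members (orange) spread far from 0. There 38 of 279 were past an absolute log2 fold change of 1. In the lower panel they spread like the rest of the chromosome.

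A library pair could also stand apart from the other 6 libraries. Among the 270 members listed in every table, both eds1 libraries lay above all other libraries for 23 members and below all for 51, together 27.4%, against 7.56% over all 17327 such genes. The same count was 4.44% of members against 6.78% of all genes for the sid2 line, and 19.3% against 14.3% for WT. For the PBL19C3A line it was 81 of the 270 members (55 above and 26 below), against 33.6% of all genes. All of these counts use the eds1 and WT libraries, whose difference chose the range, and are given without a test.

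Sorted by their calls, 12 of the 270 members differed in the eds1 line alone: they were called against each of the other 3 genotypes in a single direction, with no call between the PBL19C3A line or the sid2 line and WT. All 12 were lower in the eds1 line, but a gene listed for the eds1 line alone could not enter this set. Of all genes listed in every table, 0.0866% met these conditions, which is 15 genes including the 12 members. The conditions include the call against WT, the contrast that chose the range, so these counts are a description. The 12 are scattered through the range, 246 to 10 measured genes before EDS1, and have varied annotated functions: a ribosomal protein, an actin-binding protein, a phosphate transporter, a receptor-like kinase, a hydroxysteroid dehydrogenase and several proteins of unknown function. Leaving out a single library gave between 8 and 11 such members, with 8 the lowest; DESeq2 gave 18, of which 11 were among the 12.

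Of the 12, 8 had no read in either eds1 library, among 12 such genes in the whole eds1 table of 17534 genes. No member listed for the sid2 or the PBL19C3A line was at 0 in both of its libraries. The same held for all 17991 and 18048 genes listed for these lines. AT3G47680, annotated as a DNA-binding protein, had 0 and 0 FPKM in the eds1 line, 14.6 and 14.9 in the sid2 line, 15.9 and 16.2 in the PBL19C3A line, and 14.0 and 15.9 in WT. Its 2381 reads in WT against 0 in the eds1 line put it at least 832-fold lower, with a floor of 3 reads over both libraries that covers counting error only. In the 3 genotypes other than the eds1 line it stood at 14.0 to 16.2 FPKM. Both sid2 libraries lay within the WT range and below both PBL19C3A libraries. Its overlapping neighbour AT3G47675, annotated as a MIP1 leucine-zipper protein, was also at 0 in both eds1 libraries, against 6.19 and 6.53 FPKM in the sid2 line, 7.69 and 7.42 in the PBL19C3A line, and 8.65 and 8.93 in WT. The sources used here do not state whether the counting used strand, so reads of this pair cannot be told apart.

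HSD2 (AT3G47350), a hydroxysteroid dehydrogenase gene, had 0 and 0 FPKM in the eds1 line, 17.5 and 17.2 in the sid2 line, 16.5 and 15.4 in the PBL19C3A line, and 18.3 and 14.6 in WT. It was at least 556-fold lower in the eds1 line than in WT. The leucine-rich repeat gene AT3G43740 had 0 and 0 FPKM in the eds1 line, 17.6 and 17.6 in the sid2 line, 20.8 and 23.1 in the PBL19C3A line, and 18.3 and 17.7 in WT, at least 563-fold lower in the eds1 line than in WT. AT3G46370, a leucine-rich repeat receptor kinase gene of the malectin-like group, had 0 and 0 FPKM in the eds1 line, 9.78 and 5.44 in the sid2 line, 5.24 and 3.89 in the PBL19C3A line, and 6.88 and 4.61 in WT, at least 464-fold lower. These genes were readily detected in all 6 libraries of the other 3 genotypes, and their levels in the other 3 genotypes did not follow the labelled immunity.

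The other genes at 0 were lower in level elsewhere. AT3G44740, annotated as a class II aminoacyl-tRNA synthetase-like protein and overlapping its neighbour AT3G44750, stood at 2.84 and 3.21 FPKM in the sid2 line, 2.38 and 1.82 in the PBL19C3A line, and 3.33 and 3.56 in WT, at least 143-fold lower in the eds1 line than in WT. AT3G47965 and AT3G44713, both uncharacterised, were at least 45.8-fold and 51.0-fold lower than in WT, where their libraries had 2.83 and 2.42 FPKM and 0.718 and 0.873 FPKM. AT3G44430, also uncharacterised, had 0 and 0.0222 FPKM in the eds1 line, from 2 reads, against 9.98 and 9.08 in the sid2 line, 9.87 and 8.40 in the PBL19C3A line, and 8.12 and 8.62 in WT. The ratio of the eds1 line to WT was 0.00157, with an exact 95% counting interval of 0.000191 to 0.0057. The calls of AT3G44713 and AT3G47965 were the least stable of these: AT3G44713 lost its call against WT on leaving out any single library, and AT3G47965 without WT library 1.

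In 3 further members the transcript was lower but present. AT3G44010, a gene of the small-subunit ribosomal protein family S14p/S29e, had 21.7 and 18.5 FPKM in the eds1 line, 69.9 and 54.7 in the sid2 line, 78.6 and 70.3 in the PBL19C3A line, and 71.6 and 56.4 in WT. The log2 fold change of the eds1 line over WT was -1.71 ± 0.18. Its neighbour AT3G43980 belongs to the same protein family and stood at 18.3 and 12.8 FPKM in the eds1 line, against 12.8 and 9.78 in WT, and reads of such close copies could be shared between them. PHT4;3 (AT3G46980), of the PHT4 family of phosphate transporters, had 4.16 and 3.43 FPKM in the eds1 line, 13.3 and 13.9 in the sid2 line, 13.2 and 13.3 in the PBL19C3A line, and 15.9 and 15.6 in WT, a log2 fold change of -2.05 ± 0.13 for the eds1 line over WT. ADF2 (AT3G46000), an actin depolymerizing factor, had 34.6 and 29.4 FPKM in the eds1 line, 63.3 and 64.0 in the sid2 line, 61.5 and 59.2 in the PBL19C3A line, and 60.8 and 56.4 in WT, a log2 fold change of -0.91 ± 0.11. In each of these genes both eds1 libraries lay below all 6 others. The call of ADF2 against WT was lost on leaving out any single library, at log2 fold changes of -1.004 to -0.821. The call of AT3G44010 was lost without either eds1 library, either PBL19C3A library or WT library 1, at -1.87 to -1.53.

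**Figure D2:**
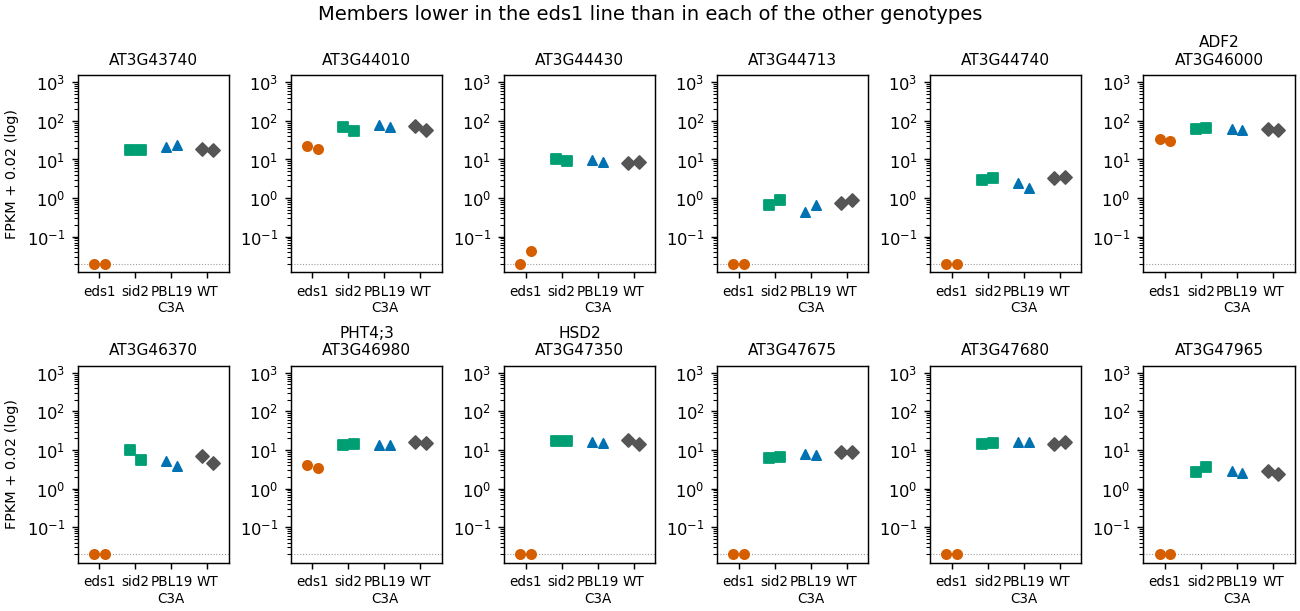
FPKM of the 12 members that differed in the eds1 line alone, 1 panel per gene, with 2 libraries per genotype (eds1 line, sid2 line, PBL19C3A line and WT) on a log axis after adding 0.02; the dotted line marks 0 FPKM. The eds1 libraries lie on the dotted line for 8 genes and below all other libraries for the rest, while the other 3 genotypes lie close together.

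Counts alone do not separate a gene that is silent from one that is missing or whose sequence differs from the reference so that reads do not align. For the genes at 0 these cannot be told apart.

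The reverse pattern was found in the tables themselves. In all, 8 members were listed for the eds1 line but in neither of the other transgenic tables, which list a gene only where it reached 1 CPM, a count rescaled by library size, in at least 2 of 4 libraries. They make up 2.87% of the members in the eds1 table, against 0.605% of all its genes, or 106 genes. A gene that is low in WT enters this table only through the eds1 libraries, so a higher level there is set by that limit. Both eds1 libraries lay above both WT libraries in 5 of the 8, and in 36 of the 106, and the 5 are named here after their values were seen. AT3G44070, a glycosyl hydrolase of family 35, had 14.9 and 14.7 FPKM in the eds1 line, from 1214 reads, and 0 and 0 in WT, at least 386-fold higher. AT3G46500, a gene of the 2-oxoglutarate and iron-dependent oxygenase family, had 3.94 and 2.78 FPKM in the eds1 line and 0 and 0 in WT, at least 129-fold higher. The F-box gene AT3G44120 had 12.3 and 5.98 FPKM in the eds1 line, against 0.335 and 0.188 in WT, and the lectin receptor kinase genes AT3G45440 and AT3G45390 are given with their family below. For the sid2 and PBL19C3A lines no value can be given.

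The ends of the range were drawn from the eds1 values themselves, so the levels there are a description. TES (AT3G43210), the first member, is a kinesin gene needed for cytokinesis after male meiosis, and had a log2 fold change of -1.89 ± 0.18 for the eds1 line over WT. The next member, AT3G43220, had 0.11 ± 0.12, and the genes just outside, AT3G43190 and AT3G42950, had 0.96 ± 0.80 and -0.05 ± 0.17. At the far end the last member, AT3G48640, had 4.92 ± 0.53, and AT3G48630 before it had no value in the eds1 table. Just outside, AT3G48670 had -0.14 ± 0.16 and AT3G48680 had -0.19 ± 0.12.

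The PBL19C3A line against WT shows how the members stood in a line labelled with constitutive immunity. Of 284 members, 64 were higher and 36 lower (edgeR), together 35.2%, against 36.2% of all genes, or 21.4% higher and 14.9% lower over all genes. In the sid2 line against WT, 43 of 280 members were higher and 7 lower, 17.9% against 16.2% of all genes (12.1% higher and 4.05% lower). The members were thus called in these lines about as often as any genes. In the single omissions that follow, the number called over all genes fell as well. Without PBL19C3A library 1 or WT library 1 the count for the PBL19C3A line was 59 or 61 members instead of 100. For the sid2 line it was 25 and 29 without sid2 libraries 1 and 2, and 26 and 31 without WT libraries 1 and 2, instead of 50.

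A set of 26 members (9.63% of 270, against 11.6% of all genes) followed immunity: they were called in a single direction in both immune lines against WT, were not called between the eds1 line and WT, and were called the opposite way between the eds1 line and the PBL19C3A line. Of these, 24 rose and 2 fell in the PBL19C3A line. With the replicate number as a block the set had 36 members, among them all 26. Without sid2 library 1 the set had 13 members, and without WT library 1 it had 14. The 26 lie 260 to 23 measured genes before EDS1. Among the 24 that rose, both eds1 libraries lay below both WT libraries in 9 and above both in 9. Of the 1446 genes of the whole series that rose by these conditions, 6.29% lay below and 28.8% above, and of all genes listed in every table the shares were 11.1% and 20.3%. The eds1 and WT libraries are those that chose the range, so this is a description. The transgene's own transcript was also far lower in the eds1 line than in the immune lines, as given above, and its part in these values was not tested.

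The highest rise was that of NIT2 (AT3G44300), a nitrilase, an enzyme class that turns nitriles such as indole-3-acetonitrile into acids, among them auxin. It had 0.705 and 0.890 FPKM in the eds1 line, 367 and 568 in the sid2 line, 559 and 392 in the PBL19C3A line, and 2.40 and 2.59 in WT. The log2 fold change was 7.52 ± 0.32 for the PBL19C3A line over WT (edgeR adjusted p = 4.83e-05) and 7.49 ± 0.32 for the sid2 line (edgeR adjusted p = 0.000173). The immune lines overlapped each other, and both eds1 libraries were below both WT libraries.

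All 3 nitrilase genes of the range, which lie side by side, rose in both immune lines (edgeR). Over all genes 21.4% and 12.1% were called higher in the PBL19C3A and sid2 lines. NIT1 and NIT3 rose by far less than NIT2. NIT1 (AT3G44310) was the most abundant, at 167 and 209 FPKM in the eds1 line, 464 and 519 in the sid2 line, 458 and 472 in the PBL19C3A line, and 268 and 288 in WT. Its log2 fold change was 0.70 ± 0.14 for the PBL19C3A line (edgeR adjusted p = 0.00878) and 0.76 ± 0.14 for the sid2 line (edgeR adjusted p = 0.0128). NIT3 (AT3G44320) had 1.31 and 1.11 FPKM in the eds1 line, 3.23 and 3.41 in the sid2 line, 3.24 and 4.02 in the PBL19C3A line, and 1.64 and 1.47 in WT, with log2 fold changes of 1.18 ± 0.22 (edgeR adjusted p = 0.00643) and 1.04 ± 0.22 (edgeR adjusted p = 0.0216) in the PBL19C3A and sid2 lines. In all 3 genes both eds1 libraries lay below both WT libraries. The NIT1 call was lost without WT library 1 in the PBL19C3A line (log2 fold changes of 0.64 to 0.74 over the single omissions), and without sid2 library 2 or WT library 1 in the sid2 line (0.68 to 0.84). The NIT3 call in the sid2 line was lost on leaving out any single sid2 or WT library (0.96 to 1.12).

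Among the 10 highest rises of the set were also 2 kinase-like genes and a calcium-binding protein. AT3G46280, annotated as a kinase-like protein of the malectin-like group, had 0.238 and 0.469 FPKM in the eds1 line, 14.1 and 12.4 in the sid2 line, 33.7 and 30.1 in the PBL19C3A line, and 1.48 and 1.03 in WT, a log2 fold change of 4.61 ± 0.28 in the PBL19C3A line (edgeR adjusted p = 9.61e-05). AT3G47480, a calcium-binding EF-hand protein, had 2.54 and 3.25 FPKM in the eds1 line, 40.3 and 56.8 in the sid2 line, 86.1 and 81.8 in the PBL19C3A line, and 2.70 and 4.26 in WT, a log2 fold change of 4.54 ± 0.28 (edgeR adjusted p = 9.61e-05). AT3G47090, a leucine-rich repeat receptor kinase related to EFR, the receptor of bacterial elongation factor Tu, had 0.701 and 0.488 FPKM in the eds1 line, 2.72 and 2.06 in the sid2 line, 5.55 and 7.62 in the PBL19C3A line, and 0.407 and 0.524 in WT, a log2 fold change of 3.78 ± 0.29 (edgeR adjusted p = 0.000195). In these 3 genes both sid2 libraries lay below the PBL19C3A libraries and above the eds1 and WT libraries. For AT3G46280 both eds1 libraries also lay below both WT libraries.

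An enzyme gene of the chitinase family, one of amino acid synthesis and a transporter gene were also among the 10. AT3G47540, of the chitinase family whose enzymes cleave fungal cell walls, had 3.003 and 2.54 FPKM in the eds1 line, 30.01 and 52.2 in the sid2 line, 64.4 and 44.8 in the PBL19C3A line, and 4.34 and 4.26 in WT, a log2 fold change of 3.63 ± 0.30 in the PBL19C3A line (edgeR adjusted p = 0.000253). ADT4 (AT3G44720), an arogenate dehydratase of the last step of phenylalanine synthesis, had 17.7 and 11.9 FPKM in the eds1 line, 47.6 and 50.3 in the sid2 line, 75.7 and 63.9 in the PBL19C3A line, and 9.24 and 12.8 in WT, a log2 fold change of 2.62 ± 0.22 (edgeR adjusted p = 0.000271). NRT2.6 (AT3G45060), of the high-affinity nitrate transporter family, had 1.25 and 0.845 FPKM in the eds1 line, 11.4 and 21.0 in the sid2 line, 28.5 and 5.50 in the PBL19C3A line, and 0.479 and 0.404 in WT, a log2 fold change of 5.20 ± 0.82 (edgeR adjusted p = 0.00298). The NRT2.6 libraries of the PBL19C3A line were far apart, and its call in the sid2 line, at 5.12 ± 0.82, was lost without WT library 1 (4.61 to 5.50 over the single omissions).

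The remaining members of the set are summarised with the plot of its 12 highest. ABCA7 (AT3G47780), an ABC transporter, rose by 2.79 ± 0.27 and 2.05 ± 0.26 on the log2 scale in the PBL19C3A and sid2 lines (edgeR adjusted p = 0.000424 and 0.00288). ACD1 (AT3G44880), the pheophorbide a oxygenase of chlorophyll breakdown, had 41.0 and 37.3 FPKM in the eds1 line, 56.1 and 59.8 in the sid2 line, 64.7 and 50.7 in the PBL19C3A line, and 36.3 and 30.7 in WT, a log2 fold change of 0.74 ± 0.14 in the PBL19C3A line (edgeR adjusted p = 0.00655). AT3G43230, of the RING/FYVE/PHD zinc finger family, had 24.99 and 26.04 FPKM in the eds1 line, 31.3 and 32.0 in the sid2 line, 37.3 and 38.0 in the PBL19C3A line, and 20.2 and 24.8 in WT, a log2 fold change of 0.70 ± 0.12 in the PBL19C3A line (edgeR adjusted p = 0.00388). Its call in the sid2 line, at 0.43 ± 0.12, was lost on leaving out any single library other than WT library 2 (0.30 to 0.59). The 2 members that fell were TCP14 (AT3G47620), a growth-related transcription factor that pathogen effectors target, and PTAC16 (AT3G46780), a protein of the plastid chromosome. TCP14 had 60.4 and 66.9 FPKM in the eds1 line, 45.5 and 52.2 in the sid2 line, 34.8 and 43.0 in the PBL19C3A line, and 71.9 and 71.0 in WT, a log2 fold change of -0.92 ± 0.14 in the PBL19C3A line (edgeR adjusted p = 0.00292). PTAC16 had 450 and 562 FPKM in the eds1 line, 360 and 415 in the sid2 line, 301 and 346 in the PBL19C3A line, and 590 and 545 in WT, a log2 fold change of -0.85 ± 0.16 (edgeR adjusted p = 0.00626). Their calls in the sid2 line were lost on leaving out any single sid2 or WT library, at -0.71 to -0.51 for TCP14 and -0.72 to -0.51 for PTAC16, and for PTAC16 also without either PBL19C3A library. The call of ACD1 in the sid2 line was lost without either sid2 library or WT library 2, at 0.62 to 0.86.

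**Figure D3:**
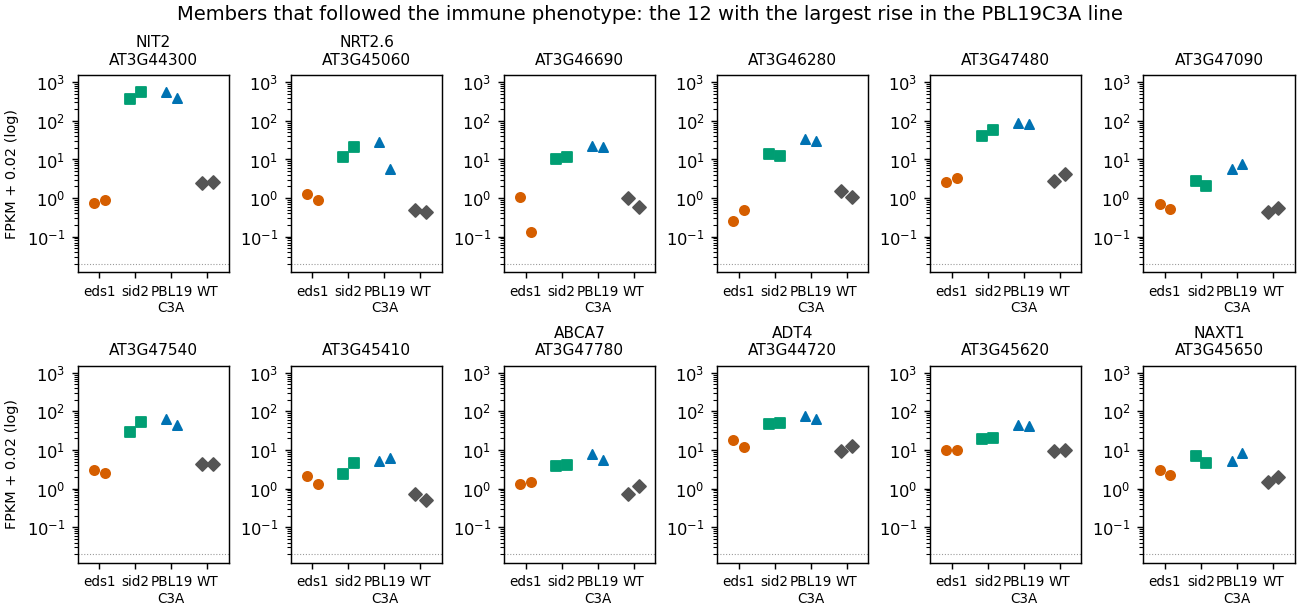
FPKM of the 12 members of the immunity-following set with the largest log2 rise in the PBL19C3A line, with 2 libraries per genotype on a log axis after adding 0.02. The sid2 and PBL19C3A libraries lie above the eds1 and WT libraries in each panel, by most for NIT2, at 367 to 568 FPKM against 0.705 to 2.59 FPKM.

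A further 15 members have no value in the table of the eds1 line and could not be followed there. Such a gene is low in WT and entered the other tables only through the libraries of a line where it is high, so its height over WT is set by that limit. The levels of the 6 most abundant are therefore given as a description, with no test. AT3G46080, a C2H2 zinc finger gene, had 65.2 and 76.1 FPKM in the sid2 line, 102 and 69.2 in the PBL19C3A line, and 0.311 and 0.444 in WT, a log2 fold change of 7.69 ± 0.31 in the PBL19C3A line. Its neighbour ZAT7 (AT3G46090), also a C2H2 zinc finger gene, had 13.5 and 13.4 FPKM in the sid2 line, 37.7 and 28.9 in the PBL19C3A line, and 0.178 and 0.992 in WT, a log2 fold change of 5.74 ± 0.54. LAS1 (AT3G45130), a lanosterol synthase of sterol metabolism, had 4.92 and 7.77 FPKM in the sid2 line, 17.2 and 16.4 in the PBL19C3A line, and 0.0965 and 0.0318 in WT, a log2 fold change of 7.96 ± 0.43. AT3G46080 overlapped between the immune lines, while ZAT7 and LAS1 were lower in both sid2 libraries than in both PBL19C3A libraries.

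The transcription factor gene NAC061 (AT3G44350) had 2.97 and 5.06 FPKM in the sid2 line, 9.16 and 7.46 in the PBL19C3A line, and 0 and 0 in WT. It was at least 89.8-fold higher in the sid2 line and at least 191-fold higher in the PBL19C3A line than in WT. AT3G48630, uncharacterised, had 2.60 and 3.26 FPKM in the sid2 line, 12.5 and 10.8 in the PBL19C3A line, and 0 and 0.136 in WT, where 3 reads were counted. The ratio of the PBL19C3A line to WT was 156, with an exact 95% counting interval of 53.0 to 758. AT3G48020, also uncharacterised, had 5.53 and 9.31 FPKM in the sid2 line, 7.74 and 10.02 in the PBL19C3A line, and 0.506 and 0.907 in WT.

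In 5 members (1.85% of 270, against 0.0519% of all genes) the eds1 line was called against WT and so was an immune line. The first of these calls comes from the contrast that chose the range, so the shares are a description. The most distinct pair of directions was that of MLO3 (AT3G45290), of the MLO family of membrane proteins whose best-known members affect powdery mildew susceptibility. It had 0.265 and 0.327 FPKM in the eds1 line, 5.36 and 6.96 in the sid2 line, 9.26 and 12.1 in the PBL19C3A line, and 2.03 and 2.52 in WT. It rose in the PBL19C3A line by 2.19 ± 0.24 on the log2 scale (edgeR adjusted p = 0.000663), and the eds1 line stood at -2.92 ± 0.28 against WT, a call lost without either eds1 library (-3.11 to -2.75). Its rise in the sid2 line, 1.38 ± 0.23 (edgeR adjusted p = 0.00813), was lost as a call without WT library 1, at 1.17 to 1.55 over the single omissions. TES had 0.792 and 0.844 FPKM in the eds1 line, 3.89 and 4.85 in the sid2 line, 5.36 and 4.42 in the PBL19C3A line, and 3.13 and 2.80 in WT. Its rise in the PBL19C3A line, 0.68 ± 0.17 (edgeR adjusted p = 0.0186), was lost without PBL19C3A library 1 or either WT library, at 0.55 to 0.80. Its call in the eds1 line was lost without either eds1 library or WT library 1 (-1.97 to -1.81).

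CEP3 (AT3G48350), a cysteine endopeptidase gene, had the opposite signs, with 13.7 and 13.6 FPKM in the eds1 line, 3.45 and 3.70 in the sid2 line, 2.41 and 2.19 in the PBL19C3A line, and 5.25 and 5.68 in WT. It fell by 1.28 ± 0.15 on the log2 scale in the PBL19C3A line (edgeR adjusted p = 0.000828), while the eds1 line stood at 1.28 ± 0.14 against WT, a call lost on leaving out any single library (1.23 to 1.34). It fell by 0.67 ± 0.14 in the sid2 line (edgeR adjusted p = 0.0206), a call lost on leaving out any single sid2 or WT library. AT3G48640, uncharacterised, was high in all 3 transgenic lines, with 9.70 and 12.4 FPKM in the eds1 line, 12.5 and 13.6 in the sid2 line, 22.4 and 27.0 in the PBL19C3A line, and 0.0631 and 0.593 in WT. It is low in WT and could enter each table only with libraries of the transgenic line. Its height over WT is thus set by that limit in all 3 lines. On the log2 scale the PBL19C3A line stood at 6.08 ± 0.54 over WT, and the sid2 line at 5.14 ± 0.53. Both values are a description, with no test, and the calls that place AT3G48640 in this set carry the same limit. Its call in the eds1 line was lost without eds1 library 2 or any single sid2 or PBL19C3A library (4.12 to 6.83). The set of 5 is completed by a lectin receptor kinase gene, AT3G45430, described next.

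The range holds several rows of related genes, and within them members differed from each other. L-type lectin receptor kinases sense extracellular signals through a lectin domain, and 5 of the 6 listed genes were measured. AT3G45430 had 0 and 0.0385 FPKM in the eds1 line, 0.470 and 0.931 in the sid2 line, 0.221 and 0.378 in the PBL19C3A line, and 2.09 and 2.32 in WT. It fell by 2.92 ± 0.57 on the log2 scale in the PBL19C3A line (edgeR adjusted p = 0.00741), a call lost without PBL19C3A library 1 (-3.36 to -2.55 over the single omissions). Its call in the eds1 line was lost without eds1 library 1 or any single PBL19C3A or WT library. Its neighbour AT3G45440 had 6.398 and 5.18 FPKM in the eds1 line, against 0.0327 and 0.191 in WT, and AT3G45390 had 1.36 and 1.35 in the eds1 line, against 0.324 and 0.315 in WT. AT3G45410 rose in both immune lines, with 2.07 and 1.30 FPKM in the eds1 line, 2.36 and 4.47 in the sid2 line, 5.06 and 6.09 in the PBL19C3A line, and 0.706 and 0.494 in WT, a log2 fold change of 3.16 ± 0.39 in the PBL19C3A line (edgeR adjusted p = 0.00117). AT3G45420 had 3.07 and 2.74 FPKM in the eds1 line, 2.09 and 1.09 in the sid2 line, 2.10 and 1.70 in the PBL19C3A line, and 1.73 and 1.05 in WT, and was called in no comparison with WT. Reads of such close relatives could be split between them by the counting.

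**Figure D4:**
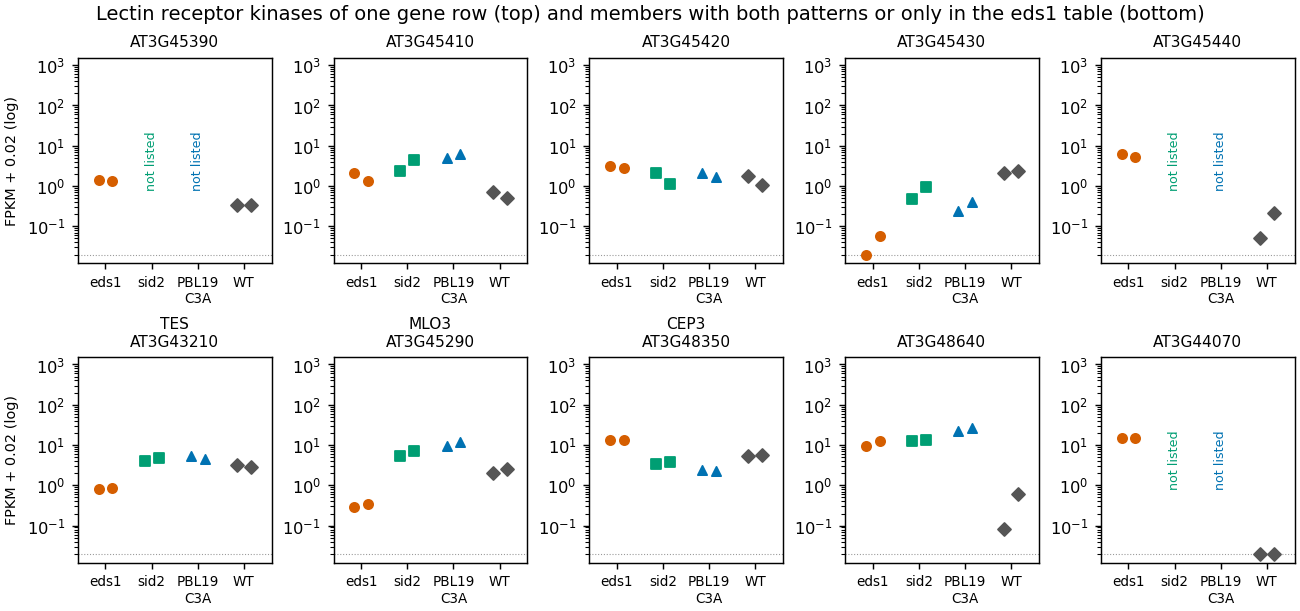
FPKM of the 5 measured lectin receptor kinase genes (top) and of TES, MLO3, CEP3, AT3G48640 and AT3G44070 (bottom), with 2 libraries per genotype on a log axis after adding 0.02; "not listed" marks a genotype whose table has no value. AT3G45430 is lowest in the eds1 line, whereas its neighbour AT3G45440 stands there at 6.398 and 5.18 FPKM.

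Among the 7 listed UGT76 glucosyltransferase genes, whose products attach sugars to small molecules, 4 were measured. In each immune line 2 were called higher (edgeR), beside 21.4% and 12.1% of all genes in the PBL19C3A and sid2 lines. Among the 2 is AT3G46700, which entered the tables only through the immune libraries, so its height over WT is set by that limit. AT3G46690 had 1.06 and 0.114 FPKM in the eds1 line, 10.11 and 11.6 in the sid2 line, 22.4 and 20.7 in the PBL19C3A line, and 0.976 and 0.573 in WT, a log2 fold change of 4.74 ± 0.69 in the PBL19C3A line (edgeR adjusted p = 0.00214). AT3G46700, with no value in the eds1 table, was low throughout, at 0.647 to 0.864 FPKM in the immune lines and 0.217 and 0.210 in WT. UGT76E12 and UGT76E11 had log2 fold changes of 0.87 ± 0.35 and 0.16 ± 0.27 in the PBL19C3A line and did not pass the test. In the sid2 line the call of AT3G46690, at 3.73 ± 0.66, was lost without either WT library (3.42 to 4.16). AT3G46700 stood at 1.79 ± 0.39 in the PBL19C3A line (1.60 to 1.96 over the single omissions). In the sid2 line it stood at 1.71 ± 0.39 (1.51 to 1.88). Both values are given as a description, with no test.

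All 4 EFR-like receptor kinase genes were measured. Beside 21.4% and 12.1% of all genes called higher in the PBL19C3A and sid2 lines, 2 of these 4 rose in each line (edgeR). Besides AT3G47090, these included AT3G47570, with 1.59 and 1.66 FPKM in the eds1 line, 13.7 and 9.96 in the sid2 line, 13.3 and 14.3 in the PBL19C3A line, and 3.83 and 7.17 in WT, a log2 fold change of 1.29 ± 0.28 in the PBL19C3A line (edgeR adjusted p = 0.0116). Both eds1 libraries of AT3G47570 lay below both WT libraries. Its call was lost without PBL19C3A library 2 (0.89 to 1.80 over the single omissions). In the sid2 line, at 1.05 ± 0.28 (edgeR adjusted p = 0.0458), it was lost on leaving out any single library other than WT library 2 (0.66 to 1.57). AT3G47110 and AT3G47580 had log2 fold changes of -0.09 ± 0.32 and -0.81 ± 0.40 in the PBL19C3A line and were not called; with the replicate number as a block AT3G47580 was called lower, at -0.82 (edgeR adjusted p = 0.0186).

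Of the 7 listed genes of the NPF nitrate transporter row, 3 were measured. NAXT1 (AT3G45650), which exports nitrate, had 3.02 and 2.28 FPKM in the eds1 line, 7.08 and 4.59 in the sid2 line, 5.27 and 8.42 in the PBL19C3A line, and 1.498 and 2.02 in WT, a log2 fold change of 1.91 ± 0.33 in the PBL19C3A line (edgeR adjusted p = 0.00424). AT3G45680 fell in the PBL19C3A line by 1.42 ± 0.40 on the log2 scale (edgeR adjusted p = 0.0273), a call lost without PBL19C3A library 1 or either WT library (-1.81 to -1.10), and AT3G45710, at -0.28 ± 0.43, did not pass the test. Of 7 listed ABCA transporter genes 3 were measured, and besides ABCA7 these were ABCA4, which fell by 0.92 ± 0.26 in the PBL19C3A line (edgeR adjusted p = 0.0286), and ABCA2, which rose by 0.53 ± 0.12 in the sid2 line (edgeR adjusted p = 0.0276). The ABCA4 call was lost without either PBL19C3A library or WT library 2 (-1.12 to -0.72) and the ABCA2 call without either sid2 library or WT library 1 (0.44 to 0.64). None of the 3 listed fatty acyl reductase genes had a value.

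Of the 6 listed CYP71A cytochrome P450 genes, a row after EDS1 whose products are monooxygenases, 4 were measured. CYP71A22 (AT3G48310) had 29.99 and 25.2 FPKM in the eds1 line, 26.1 and 29.96 in the sid2 line, 22.8 and 23.7 in the PBL19C3A line, and 18.3 and 15.2 in WT. All 3 transgenic lines lay above WT, and the log2 fold change was 0.68 ± 0.14 in the sid2 line (edgeR adjusted p = 0.0183) and 0.43 ± 0.14 in the PBL19C3A line (edgeR adjusted p = 0.0481). CYP71A21 (AT3G48320) had 11.2 and 12.3 FPKM in the eds1 line, 12.7 and 11.1 in the sid2 line, 9.27 and 12.4 in the PBL19C3A line, and 5.69 and 6.91 in WT, also above WT in all 3 lines. CYP71A25 (AT3G48280) fell by 2.70 ± 0.69 on the log2 scale in the PBL19C3A line (edgeR adjusted p = 0.0199). These calls were each lost on some single omission. CYP71A22 lost its call in the PBL19C3A line on leaving out any 1 of the 8 libraries (0.29 to 0.56). In the sid2 line its call was lost without sid2 library 2 or WT library 2 (0.56 to 0.83). CYP71A25 lost its call without PBL19C3A library 1 or WT library 1 (-3.53 to -1.87). CYP71A21 lost its call in the PBL19C3A line without PBL19C3A library 2 or WT library 1, at 0.50 to 0.95.

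Among genes of basic cell machinery, the 6 listed cytosolic ribosomal protein genes were all measured, and 0 were called in the PBL19C3A line, 0 higher and 1 lower in the sid2 line (edgeR), with median log2 fold changes of 0.03 and -0.17. The lower one was AT3G45030, of the S10p/S20e family, at -0.41 ± 0.11 (edgeR adjusted p = 0.048), a call lost on leaving out any single library other than WT library 2 (-0.52 to -0.29). At an unadjusted p below 0.05 there was 1 in the PBL19C3A line, and DESeq2 called 0 there. The 10 listed genes of plastid machinery were all measured, and 2 were called higher and 2 lower in the PBL19C3A line, 2 higher and 1 lower in the sid2 line (edgeR). Beside ACD1 and PTAC16, the called genes in the PBL19C3A line were FTSH7 (AT3G47060), a protease of the FtsH family, and CSR1 (AT3G48560), the acetolactate synthase that sulfonylurea herbicides inhibit. CSR1 had 271 and 284 FPKM in the eds1 line, 225 and 236 in the sid2 line, 172 and 200 in the PBL19C3A line, and 286 and 289 in WT, a log2 fold change of -0.67 ± 0.12 in the PBL19C3A line (edgeR adjusted p = 0.00463). FTSH7 rose by 0.59 ± 0.14 (edgeR adjusted p = 0.0171), a call lost without PBL19C3A library 1 or either WT library (0.45 to 0.71). Its call in the sid2 line, at 0.53, was lost on leaving out any single sid2, PBL19C3A or WT library (0.43 to 0.62). The translocon gene TOC75-III, at -0.21 ± 0.11, and the malate dehydrogenase gene MDH, at -0.16 ± 0.11, did not pass the test.

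The sid2 line was also set against the PBL19C3A line, the same construct without the sid2 mutation. Here 1 member was higher and 6 lower of 278 (edgeR), together 2.52%, against 2.63% of all genes (0.651% higher and 1.98% lower), and 3 of the 26 members that followed immunity were among those lower. With the replicate number as a block, 15 members were called, and DESeq2 called 18. Over all genes these settings called 924 and 1377, beside 469 in the main fit. Without sid2 library 1 or 2 and without PBL19C3A library 1, 1 member was called, and without PBL19C3A library 2 edgeR called 0, with 35 at an unadjusted p below 0.05. AT3G45620, a WD40 repeat gene that overlaps AT3G45630, had 19.6 and 20.3 FPKM in the sid2 line, against 43.4 and 41.5 in the PBL19C3A line, 10.04 and 9.72 in the eds1 line, and 9.40 and 10.102 in WT. The log2 fold change of the sid2 line over the PBL19C3A line was -1.11 ± 0.10 (edgeR adjusted p = 0.00494). AT3G46280 and AT3G47090, described above, stood at -1.28 ± 0.24 (edgeR adjusted p = 0.0431) and -1.48 ± 0.26 (edgeR adjusted p = 0.0356).

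Outside the set that followed immunity, AT3G47380, a gene of the pectin methylesterase inhibitor family, had 1.27 and 1.35 FPKM in the sid2 line, against 5.69 and 6.54 in the PBL19C3A line, 1.76 and 2.17 in the eds1 line, and 2.13 and 1.10 in WT. Its log2 fold change of the sid2 line over the PBL19C3A line was -2.23 ± 0.36 (edgeR adjusted p = 0.0275). The glycosyl hydrolase gene AT3G47010 had 6.23 and 6.59 FPKM in the sid2 line, against 13.5 and 16.4 in the PBL19C3A line, and stood at -1.24 ± 0.15 (edgeR adjusted p = 0.0127). AT3G48460, a GDSL-type lipase gene, had 4.90 and 5.23 FPKM in the sid2 line, against 1.43 and 1.65 in the PBL19C3A line, 5.21 and 8.60 in the eds1 line, and 8.16 and 8.43 in WT, at 1.69 ± 0.27 (edgeR adjusted p = 0.0269). In AT3G47380 and AT3G47010 the high level was found in the PBL19C3A line alone. The calls named in this comparison were each lost without either PBL19C3A library, except that AT3G47010 was lost without PBL19C3A library 2 but not library 1; all but AT3G45620 were also lost without either sid2 library, and those of AT3G46280 and AT3G47090 without either WT library too.

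The other members divide into 55 called in a single immune line, 172 with none of these patterns, and 9 with an eds1 value but no value for both immune lines. Of the 55 (20.4% of 270, against 22.3% of all genes), 21 were higher and 29 lower in the PBL19C3A line, and 4 were higher and 1 lower in the sid2 line. Among the 172, 8 were called in both immune lines, 5 higher and 3 lower, without an opposite call between the eds1 line and the PBL19C3A line. The share of all genes with this pattern was not counted, so the 8 are given as a description. CYP71A21 and CYP71A22 are among these 8. Another, named after its values were seen, is FAMT (AT3G44860), a farnesoic acid carboxyl methyltransferase gene. It had 8.37 and 4.99 FPKM in the eds1 line, 10.6 and 6.08 in the sid2 line, 9.74 and 7.29 in the PBL19C3A line, and 1.65 and 1.23 in WT. The 3 transgenic lines overlapped for this gene and all lay above WT. The plot of both contrasts sets the classes apart.

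**Figure D5:**
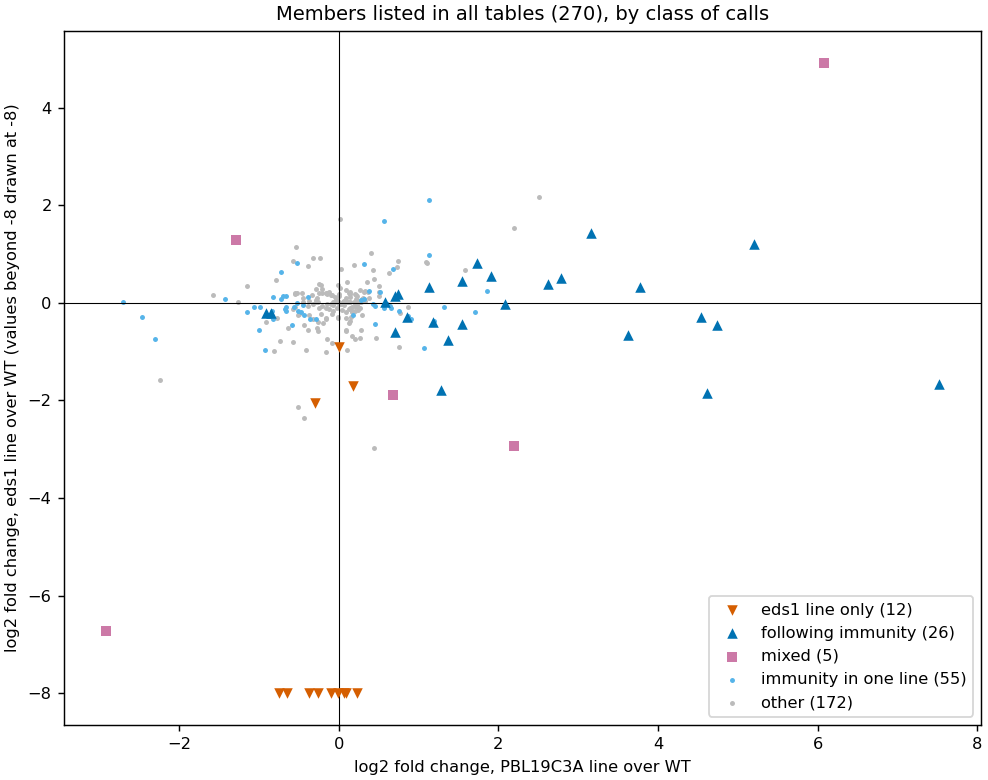
Log2 fold change of the eds1 line over WT against that of the PBL19C3A line over WT for the 270 members listed in every table, marked by class of calls; values beyond -8 on the vertical axis are drawn at -8. The 12 members that differed in the eds1 line alone lie low and near the vertical axis line, and the 24 that rose with immunity lie to the right near the horizontal one, at up to 7.52 for NIT2.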

How the data were processed

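RNA-seq libraries of rosettes, 2 for each of 4 genotypes, were compared. Per the file headers, the authors' deposited tables give raw read counts and FPKM for each gene in each library. The submitters' processing notes name HISAT2 2.0.4 and TAIR10, and the counting tool and use of strand are not given in the sources used here. Each count table holds WT and 1 transgenic line and lists only genes at 1 CPM (a count rescaled by library size) or more in at least 2 of its 4 libraries, as computed from the deposited counts. A gene absent from a table was given no value there. Locus numbers gave the gene order, and the TAIR10.1 annotation gave names for 293 of 294 members and the overlaps of 68. No coordinates or sequences are given, since the releases differ in name.

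The tests used edgeR 4.0.16 under R 4.3.3 on the counts (quasi-likelihood, TMM, filterByExpr, Benjamini-Hochberg over all genes of a comparison, threshold 0.05). A gene was fitted with all libraries that have a value, with genotype as the only term, and the biological coefficient of variation was 18.1%. The scripts were tested on simulated data. DESeq2 1.42.0, RLE scaling, no filter, only the genotypes compared, the replicate number as a block and leaving out each library were the alternatives. Libraries with the same number deviated together in all 6 pairs of genotypes (correlations of 0.146 to 0.382 over 17327 genes), so the numbers may pair the samples. The main calls do not use this pairing. With the block, 119 members instead of 100 were called between the PBL19C3A line and WT, and 7614 instead of 6536 over all genes. The labels do not say what libraries of the same number share.

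The members, gene families, markers and the 10 immune genes were chosen with earlier results of these data known. Named are all 12 members that differed in the eds1 line alone, the 10 highest and 6 lowest of those following immunity, those with both patterns, the 5 largest in each direction between the sid2 and PBL19C3A lines, the 6 most abundant without an eds1 value, the ends of the range, and the measured family members.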

Additional observations from a re-analysis of the deposited data

How the results depend on the processing

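Calls moved with the omission of single libraries and with the method, over all genes as well as among the members. Over the single omissions, the members called numbered 12 to 15 for the eds1 line against WT, 56 to 100 for the eds1 line against the PBL19C3A line, 34 to 51 for the eds1 line against the sid2 line, 59 to 100 for the PBL19C3A line against WT, 25 to 49 for the sid2 line against WT, and 0 to 6 for the sid2 line against the PBL19C3A line. The set that differed in the eds1 line alone numbered 8 to 11 and the set that followed immunity 13 to 27. DESeq2 called 41 members between the eds1 line and WT (15 higher and 26 lower), among them all 18 of the edgeR calls, and 18 between the sid2 and PBL19C3A lines, among them all 7. With only the 2 genotypes compared in the fit, 8 members were called between the eds1 line and WT (1 higher and 7 lower). The replicate block gave 15 members between the sid2 and PBL19C3A lines, and no other count moved by over 1.5 times with the pairing.

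Of 119 named values, 98 were called, and 0 of the called values changed sign under any alternative run. Single omissions ended 44 of these calls, RLE scaling 1, and DESeq2 and the replicate block 0, while the block added 2 and DESeq2 1. Removing the filter changed 0. Uncalled values near 0 changed sign in the PBL19C3A line against WT. AT3G48500 (0.0076) was -0.0014 with RLE scaling, -0.0017 with DESeq2 and -0.0027 with the replicate block, and -0.20 to 0.19 over the single omissions. Over these omissions AT3G43980 ranged over -0.0795 to 0.301, AT3G44590 over -0.414 to 0.218, AT3G45710 over -0.813 to 0.285, AT3G46670 over -0.255 to 0.476, AT3G47110 over -0.410 to 0.297, AT3G47370 over -0.213 to 0.0993 and AT3G47860 over -0.175 to 0.226. The cause of these shifts was not tested.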

Other observations

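The newGene loci, which the files list without a locus number, could not be placed relative to EDS1. Of the 189 with a value in the eds1 table, 6 (3.17%) were called between the eds1 line and WT, 2 higher and 4 lower, against 0.16% of all genes (edgeR). An absolute log2 fold change of at least 1 was found in 18 of them (9.52%), against 13.6% of the members of the range and 1.44% of all genes. In the PBL19C3A line against WT, 63 of 206 newGene loci (30.6%) were called, against 36.2% of all genes.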
